A study of Homo sapiens with 6 samples.

Results

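The enzymes and carriers of glycolysis and the pentose phosphate pathway were followed as a set of 34 genes, listed by name and read from the rows of the deposited table that carry those symbols. Of the 34, 33 had values, out of 15059 genes in the table. PFKFB2 is not analysed here. A filter on low values, which asked for 1 or more in 2 or more libraries, kept 32 of them among 12734 genes tested. The gene left out was PFKM, whose values lay between 0.502 and 0.854.

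Glycolysis splits glucose into pyruvate in the cytosol, with phosphofructokinase as its main point of control, and lactate dehydrogenase turns pyruvate into lactate, which leaves the cell through monocarboxylate transporters. The pentose phosphate pathway branches off at glucose 6-phosphate, where its oxidative arm makes NADPH and its non-oxidative arm makes ribose 5-phosphate for nucleotides. Many steps are served by several isoenzymes from separate genes, and leukaemia cells are known for high glycolytic activity.

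The cells were NOMO-1, a human acute myeloid leukaemia line that carries a KMT2A fusion, in 3 groups of 2 libraries. Rescue cells (sgMETTL16+OE-METTL16) were made to overexpress METTL16 and then received a guide RNA against the endogenous gene. Knockout cells (sgMETTL16+EV) received that guide in cells with an empty vector, and control cells (sgNS+EV) a non-targeting guide in cells with the empty vector. METTL16 is a methyltransferase that places N6-methyladenosine on U6 small nuclear RNA and on hairpins of the MAT2A messenger RNA. All cells were infected with lentivirus and kept in puromycin at 2 µg/ml for 1 to 2 weeks, and total RNA freed of ribosomal RNA was sequenced. The sources used here do not state whether the cells were a pool or a clone, how many guides were used, or whether replicates were separate cultures, so that p-values cover the spread of these libraries, which may be technical. Rescue and knockout cells are parallel groups and not stages in time.

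The value per gene and library is an abundance from RSEM, called the signal here, which is scaled for transcript length, so that levels of different genes can be set side by side. It summed to 597160 to 681928 over all genes of a library. The spacing of values of short transcripts put a signal of 1 at about 46.1 to 51.2 reads over 2000 nt, so that PFKM rests on far fewer reads than GAPDH. METTL16 had 12.3 and 12.1 in rescue libraries, 6.05 and 5.83 in knockout libraries, and 9.89 and 9.63 in control libraries, lowest in the libraries labelled knockout. Its log2 difference of 0.30 between rescue and control cells did not pass (adjusted p = 0.175 by limma). Whether the introduced METTL16 was counted is not stated in the sources used here, so these values do not measure the overexpression. MAT2A had 133.7 and 137.9 in rescue libraries, 77.6 and 78.1 in knockout libraries, and 140.2 and 131.7 in control libraries. Of 12 myeloid markers, 9 were at 1 or above in every library, which goes with the labelled cell type. So were 2 of the 3 B cell markers in the table, though the B cell sum was only 3.32 to 4.52. The 10 myeloid markers in the table summed to 420.5 to 429.3 in rescue, 525.1 to 529.6 in knockout and 347.5 to 374.2 in control. That myeloid sum moved with the groups. The single T cell marker in the table, CD2, moved the same way, at 0.640 to 0.794 in rescue, 2.86 to 3.02 in knockout and 0.636 to 0.740 in control libraries. The part of these shifts in the results that follow was not tested. CD3D, CD3E, CD3G, MPO and CD14 are not analysed here.

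Sequence elements were looked for in the members because METTL16 is known to bind a 9-base motif in the MAT2A hairpins, TACAGAGAA. The longest coding transcript of each gene in GENCODE release 29 was read on its sense strand. MAT2A held 5 copies, and the first and last are shown with 10 bases on each side and the motif in capitals, followed by the matches in the transcripts read for the members.
MAT2A, first copy, transcript bases 1351 to 1359: tggcgtaggcTACAGAGAAgccttcaagc
MAT2A, last copy, transcript bases 2661 to 2669: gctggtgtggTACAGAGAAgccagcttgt
ALDOC, transcript bases 1091 to 1099: gtcagtatgtTACAGAGAAggtcttggct
TKT, transcript bases 1448 to 1456: atggcgttgcTACAGAGAAggcagtggaa
Thus 2 of 34 members (5.88%) held these letters, against 411 of 10743 tested coding genes (3.83%). The 34 include PFKFB2 and PFKM, which were not tested and held no copy. Among all annotated transcripts, SLC2A1 also held the motif, in 2 of its 9 transcripts but not in the one read, while ALDOC held it in 2 of 9 and TKT in 9 of 14. None of the 12 annotated transcripts of PFKL held them.

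The E-box CACGTG, the letters that MYC is known to bind, was looked for in the 250 bases before each RefSeq start (build GRCh38.p14), where 31 of the 34 members had an entry. The motif reads the same on both strands. It was in 4 of 31 member promoters (12.9%), those of LDHA, PGM2, GAPDH and ALDOC, against 845 of 9121 promoters of tested genes (9.26%). The 31 include PFKM, which was not tested and had no E-box. A match is a description of the letters and not a bound site. Of the 4, LDHA, PGM2 and GAPDH fell in knockout relative to control cells, where 13.5% of all genes tested fell. The falls of LDHA and GAPDH were lost under several alternatives given below. ALDOC was higher in knockout than in control cells without a call (0.20, adjusted p = 0.0999 by limma). Whether falls were more common with an E-box was not tested. LDHB, RPE, RPIA and PGLS also fell and had no E-box, and SLC16A1, which fell, had no entry. The promoters of 3 members that fell in knockout cells are shown, LDHA with 2 E-boxes and PGM2 with 1, in capitals, and PFKL with none.
LDHA promoter, chr11:18394313-18394562, plus strand: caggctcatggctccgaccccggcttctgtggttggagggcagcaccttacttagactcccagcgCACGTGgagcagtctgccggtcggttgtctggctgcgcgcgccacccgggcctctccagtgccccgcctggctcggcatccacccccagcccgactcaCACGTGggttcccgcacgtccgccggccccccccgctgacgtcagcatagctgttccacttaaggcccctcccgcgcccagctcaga
PGM2 promoter, chr4:37826436-37826685, plus strand: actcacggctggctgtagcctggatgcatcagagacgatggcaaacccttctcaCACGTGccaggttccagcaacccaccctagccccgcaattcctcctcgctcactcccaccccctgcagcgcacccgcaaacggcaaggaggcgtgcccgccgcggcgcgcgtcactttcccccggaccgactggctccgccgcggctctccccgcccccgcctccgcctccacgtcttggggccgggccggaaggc
PFKL promoter, chr21:44299803-44300052, plus strand: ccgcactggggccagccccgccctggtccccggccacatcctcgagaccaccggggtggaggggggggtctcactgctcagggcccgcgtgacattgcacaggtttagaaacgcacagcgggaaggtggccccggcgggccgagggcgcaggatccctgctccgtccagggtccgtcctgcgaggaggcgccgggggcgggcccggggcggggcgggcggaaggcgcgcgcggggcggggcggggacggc

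Levels spanned more than 3 orders of magnitude. GAPDH was highest in every library, at 1359 and 1382 in rescue, 1192 and 1191 in knockout, and 1391 and 1259 in control libraries. ENO1 came next in every library. The pentose phosphate enzymes TKT, TALDO1 and PGD averaged 105.1 to 151.4 in rescue, 115.4 to 148.5 in knockout and 96.1 to 145.0 in control libraries. Glucose carriers, hexokinases and phosphofructokinases all lay under 50, and PFKM was lowest. Summed over the 33 genes, the signal was 5170 and 5216 in rescue, 4841 and 4729 in knockout, and 5084 and 4728 in control libraries, 0.746% to 0.792% of all signal. The groups overlapped in this share, while single enzymes differed between them.

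**Figure D1:**
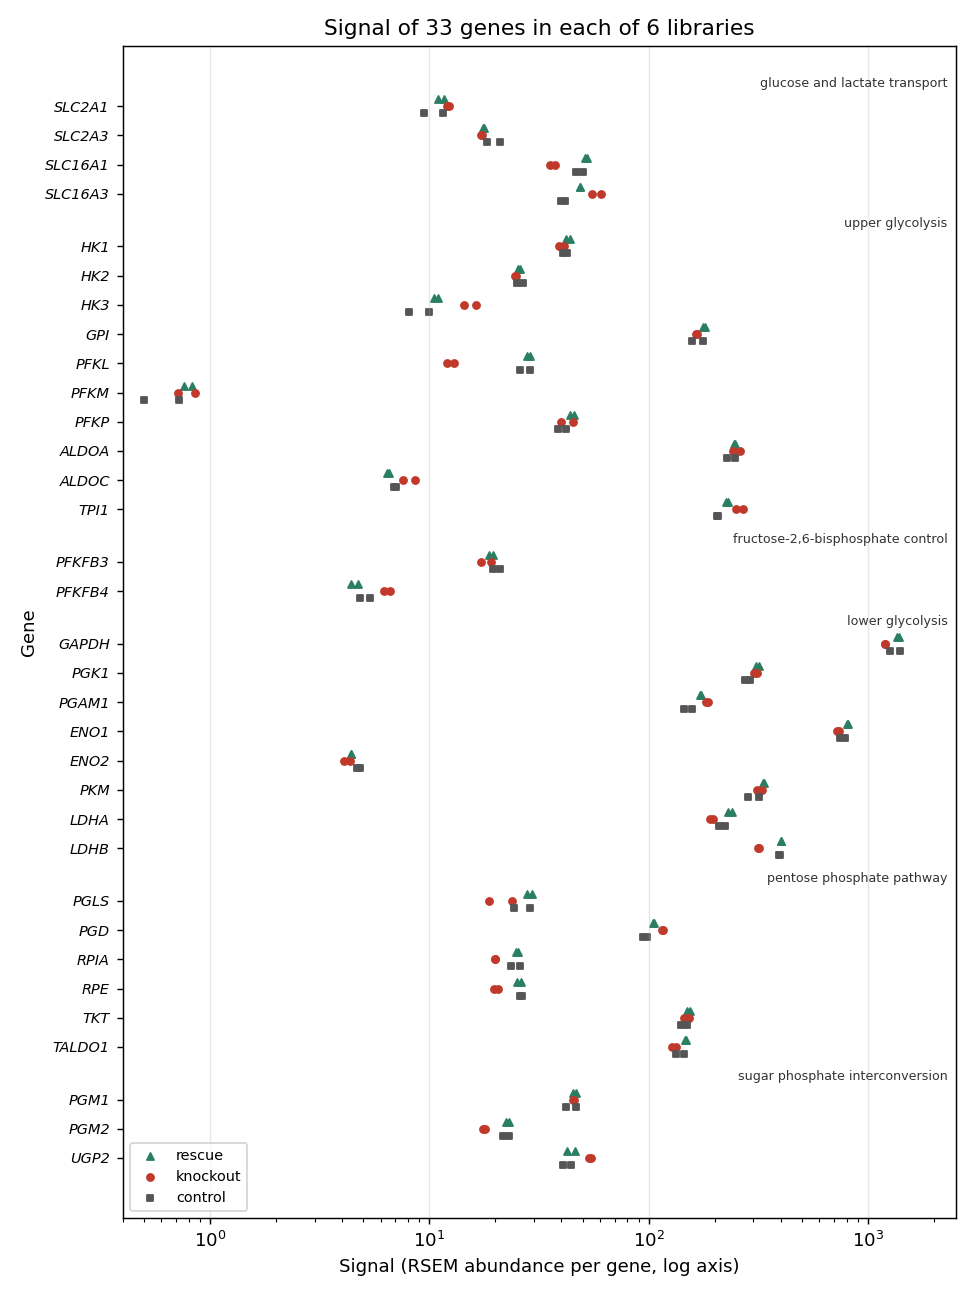
Signal (RSEM abundance, log axis) of the 33 genes with values in each library, ordered by role; triangles are rescue, circles knockout and squares control libraries, with 2 of each. The knockout points of PFKL, at 12.9 and 12.0, stand left of both other groups, and those of HK3, at 16.2 and 14.3, stand right of them.

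The comparison of knockout with control cells asks which transcripts differ once METTL16 is targeted. Loss and gain were mixed: 7 of 32 genes rose (21.9%, where 26.2% of all genes tested rose) and 9 fell (28.1%, where 13.5% of all genes tested fell), by limma at an adjusted p under 0.05. The median change was -0.04 on the log2 scale, beside 0.07 for all genes tested. In such bulk RNA, fewer cells of a type and less RNA per cell cannot be told apart. Scaling moves this split: over all genes 65.9% of calls were rises as deposited, 49.7% after quantile normalization and 45.9% after scaling by the median ratio. After quantile normalization 9 members rose and 14 fell, where 3146 of 12734 genes rose and 3187 fell. After scaling by the median ratio 7 members rose and 17 fell, where 2920 of 12722 genes rose and 3435 fell. Knockout libraries lay wholly above control libraries for 10 members (31.2%, against 43.4% of all genes) and wholly below for 15 (46.9%, against 25.1%).

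Rescue against knockout cells asks what differs when METTL16 is supplied, and uses the same knockout libraries, so the comparisons are not independent. Here 11 of 32 genes rose (34.4%, where 15.6% of all genes tested rose) and 6 fell (18.8%, where 15.9% fell). The median change was 0.06, beside -0.01 for all genes tested. Rescue libraries lay wholly above knockout libraries for 17 members (53.1%, against 34.7% of all genes) and wholly below for 9 (28.1%, against 38.1%). Leaving out rescue replicate 1 left 1 of the 6 falls, and leaving out knockout replicate 1 or rescue replicate 2 left 3.

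**Figure D2:**
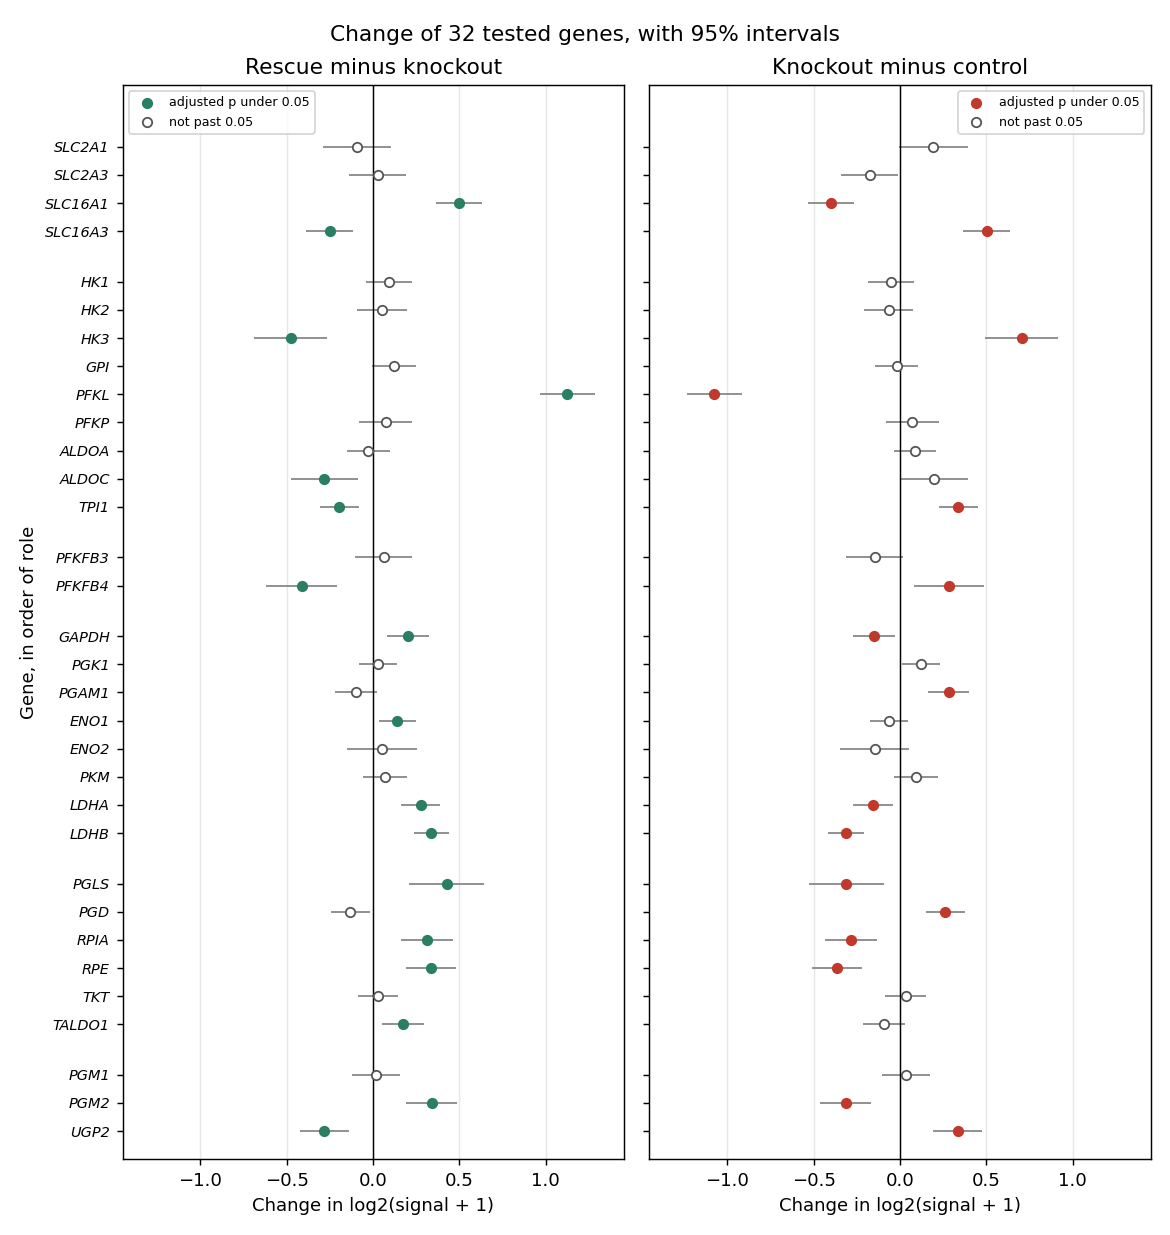
Change in log2(signal + 1) of the 32 tested genes with 95% intervals from limma, rescue minus knockout on the left and knockout minus control on the right; filled points are past an adjusted p of 0.05 over all genes. PFKL has the largest change among the members in both panels, 1.12 and -1.07.

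The phosphofructokinases carry out the committed step of glycolysis, and their liver form showed the largest change of the set. PFKL (chromosome 21, 44300051 to 44327376, plus strand, GRCh38) had a signal of 27.9 and 28.7 in rescue libraries, 12.9 and 12.0 in knockout libraries, and 28.7 and 25.9 in control libraries. Both knockout libraries lay below 13 and every other library above 25. The means were 28.3 ± 0.553 in rescue, 12.4 ± 0.648 in knockout and 27.3 ± 1.95 in control cells (SD, n = 2 each). On the log2 scale PFKL fell by 1.07 in knockout cells (SE 0.074, adjusted p = 2.00e-07 by limma), to 0.456 of the control mean. It stood at place 17 from the lowest change of 12734 genes. In rescue cells it was 2.27 times the knockout mean (log2 change 1.12, SE 0.074, adjusted p = 2.39e-07).

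The platelet form PFKP (chromosome 10, 3066333 to 3137712, plus strand) had 45.7 and 43.8 in rescue libraries, 45.2 and 39.9 in knockout libraries, and 42.2 and 38.6 in control libraries. Knockout libraries overlapped with both other groups, and the change was 0.07 in knockout relative to control cells (95% interval -0.08 to 0.23, adjusted p = 0.454). The muscle form PFKM (chromosome 12, 48105139 to 48146404, plus strand) had 0.825 and 0.760 in rescue, 0.854 and 0.714 in knockout, and 0.723 and 0.502 in control libraries, and was under the filter for the test. It lies opposite SENP1 on the other strand.

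The balance of the isoenzymes shifted with PFKL. PFKL made up 37.5% and 39.2% of the summed signal of the family in rescue libraries, 21.9% and 22.8% in knockout libraries, and 40.1% and 39.9% in control libraries. Its share was 17.6 percentage points lower in knockout than in control and 16.0 points higher in rescue than in knockout, with an exact two-sided permutation p of 0.333 for each, the smallest that 2 against 2 libraries allow. The ratio of PFKL to PFKP, fitted in the same model as all genes, fell by 1.15 (log2) in knockout relative to control cells (SE 0.096, adjusted p = 1.24e-06) and rose by 1.05 in rescue relative to knockout cells (SE 0.096, adjusted p = 5.09e-06). PFKP changed less than PFKL, so the summed signal of the family was 0.816 of the control sum in knockout cells and 1.32 times the knockout sum in rescue cells.

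**Figure D3:**
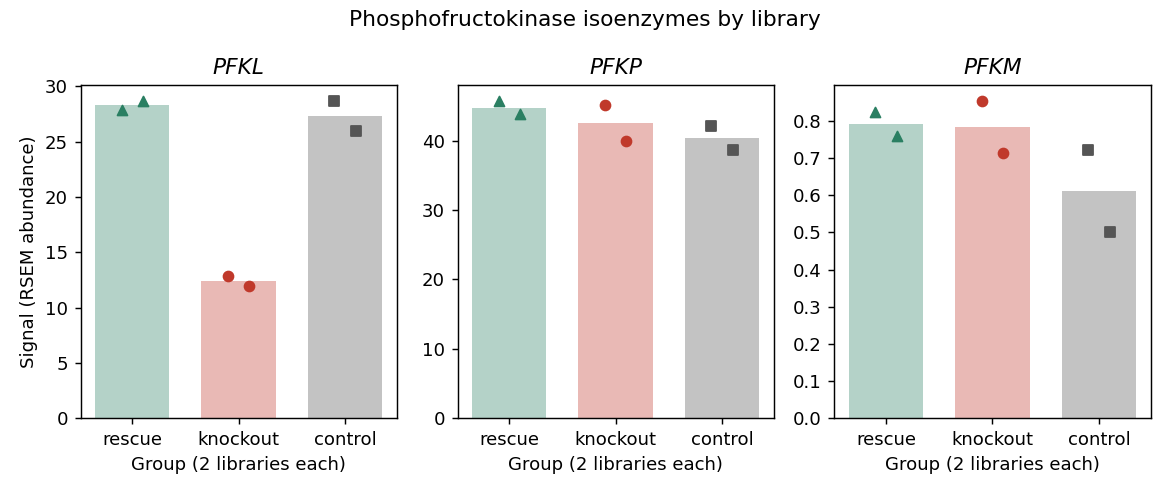
Signal of the phosphofructokinase genes by group, with a point per library and bars at the group mean, each panel on its own axis from 0. PFKL averaged 28.3 in rescue, 12.4 in knockout and 27.3 in control cells, while the knockout points of PFKP, at 45.2 and 39.9, overlap both other groups.

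The hexokinases trap glucose in the cell by phosphorylation, and the form known from myeloid cells rose. HK3 (chromosome 5, 176880869 to 176899332, minus strand) had 10.9 and 10.5 in rescue libraries, 16.2 and 14.3 in knockout libraries, and 10.0 and 8.05 in control libraries. Both knockout libraries lay above all others. It rose by 0.70 on the log2 scale in knockout relative to control cells (SE 0.099, adjusted p = 9.65e-05), 1.69 times the control mean. In rescue relative to knockout cells it fell by 0.48 (adjusted p = 0.00255). UNC5A lies opposite HK3 on the other strand, and no source used here says how strand was used in counting. The myeloid marker sum, given above, was also highest in knockout libraries.

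The other hexokinases did not pass the test with the values as deposited. HK1, the widely expressed form, had 43.7 and 41.9 in rescue, 41.3 and 39.0 in knockout, and 42.6 and 40.8 in control libraries, and knockout and control libraries overlapped. HK2, the inducible form of many tumours, had 25.5 and 25.9 in rescue, 24.9 and 24.5 in knockout, and 26.8 and 25.0 in control libraries. Both passed as falls in knockout relative to control cells under the other scalings: HK1 at -0.14 after quantile normalization (adjusted p = 0.0217) and -0.15 after scaling by the median ratio (adjusted p = 0.0353), and HK2 at -0.13 (adjusted p = 0.0134) and -0.16 (adjusted p = 0.00767). The ratio of HK2 to HK1 changed by -0.01 in knockout relative to control cells, with an interval of -0.21 to 0.19. HK3 gained on both: its ratio to HK1 rose by 0.76 (adjusted p = 0.000211) and that to HK2 by 0.77 (adjusted p = 0.000192) in knockout relative to control cells, and they fell by 0.57 (adjusted p = 0.00247) and 0.53 (adjusted p = 0.00395) in rescue relative to knockout cells. HK3 made up 13.5% of hexokinase signal in rescue, 19.1% in knockout and 11.8% in control cells on average.

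Of the 9 tested genes of upper glycolysis, HK3 and TPI1 rose and PFKL fell in knockout relative to control cells, where 26.2% of all genes tested rose and 13.5% fell. TPI1, which interconverts the triose phosphates, had 228.9 and 225.2 in rescue libraries, 269.8 and 251.0 in knockout libraries, and 207.6 and 203.9 in control libraries. It was higher in both knockout libraries than in any other, and rose by 0.34 in knockout relative to control cells (SE 0.053, adjusted p = 0.000235). Its fall of 0.20 in rescue relative to knockout cells (adjusted p = 0.0122) was lost without knockout replicate 1 (0.176), rescue replicate 1 (0.0702) or rescue replicate 2 (0.121). The fall was lost without the mean-variance trend as well (adjusted p = 0.0746). SPSB2 overlaps TPI1 on the other strand, and 4 annotated pseudogenes carry its name.

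ALDOC, the brain form of aldolase, had 6.58 and 6.41 in rescue libraries, 8.64 and 7.62 in knockout libraries, and 7.04 and 6.88 in control libraries. It was lower by 0.28 in rescue than in knockout (adjusted p = 0.0288), a call lost without knockout replicate 1 (0.324), rescue replicate 1 (0.116) or rescue replicate 2 (0.177). ALDOC did not pass in knockout relative to control cells (log2 change 0.20, adjusted p = 0.0999). GPI, the isomerase ahead of phosphofructokinase, passed in no comparison with the values as deposited, with 157.5 to 181.2 over all libraries and a change of -0.02 in knockout relative to control cells. After scaling by the median ratio it passed at -0.11 in knockout relative to control cells (adjusted p = 0.0135). It then also passed at 0.15 in rescue relative to knockout cells (adjusted p = 0.00567). The second change passed too with only the 2 groups compared in the fit (adjusted p = 0.0275). Leaving out a control library gives that same fit. ALDOA, the main aldolase, did not pass either, with 227.2 to 260.2 and a change of 0.09. The ratio of ALDOC to ALDOA changed by 0.11 in knockout relative to control cells (interval -0.15 to 0.37) and did not pass.

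The bifunctional PFKFB enzymes set the level of fructose 2,6-bisphosphate, the activator of phosphofructokinase. PFKFB4 (chromosome 3, 48517684 to 48562015, minus strand) had 4.41 and 4.74 in rescue libraries, 6.65 and 6.22 in knockout libraries, and 5.36 and 4.85 in control libraries, highest in both knockout libraries. It rose by 0.28 in knockout relative to control cells (adjusted p = 0.0291) and fell by 0.41 in rescue relative to knockout cells (adjusted p = 0.00493). The rise was lost without control replicate 2 (0.0848), knockout replicate 1 (0.213) or knockout replicate 2 (0.0740), and the fall without rescue replicate 1 (0.0511). UCN2 overlaps it on the same strand.

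PFKFB3, the form in which the kinase activity prevails, had 19.4 and 18.6 in rescue, 19.2 and 17.2 in knockout, and 21.0 and 19.5 in control libraries. Knockout lay below control in both libraries, but the change of -0.15 did not pass (interval -0.31 to 0.02, adjusted p = 0.144). It did after quantile normalization (-0.20, adjusted p = 0.0219) and scaling by the median ratio (-0.24, adjusted p = 0.0108). The ratio of PFKFB3 to PFKFB4 fell by 0.43 in knockout relative to control cells (adjusted p = 0.0175) and rose by 0.48 in rescue relative to knockout cells (adjusted p = 0.0131). Both calls were lost without either knockout library, and the second also without rescue replicate 1, with adjusted p of up to 0.132 and 0.154.

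The 8 genes of lower glycolysis moved less, with changes of -0.31 to 0.28 in knockout relative to control cells. PGAM1, the phosphoglycerate mutase, rose in knockout cells, and GAPDH, LDHA and LDHB fell, beside 26.2% of all genes tested that rose and 13.5% that fell. The lactate dehydrogenases were lowest in knockout libraries. LDHB, the heart form, had 399.3 and 400.0 in rescue libraries, 317.8 and 314.3 in knockout libraries, and 395.9 and 390.5 in control libraries. Its libraries within a group differed by less than 6, and the knockout libraries lay more than 70 below all others. LDHB fell by 0.31 in knockout relative to control cells (SE 0.048, adjusted p = 0.000203) and rose by 0.34 in rescue relative to knockout cells (SE 0.048, adjusted p = 0.000198).

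LDHA, the muscle form, had 230.6 and 239.3 in rescue libraries, 197.1 and 190.9 in knockout libraries, and 223.3 and 209.9 in control libraries. It rose by 0.28 in rescue relative to knockout cells (adjusted p = 0.00166). LDHA fell by 0.16 in knockout relative to control cells (adjusted p = 0.0306). That call was lost without the mean-variance trend (0.122) or with only those groups in the fit (0.066). It was also lost when any library other than control replicate 2 was left out, with changes of -0.18 to -0.11. The ratio of LDHB to LDHA did not pass in knockout relative to control cells (-0.16, interval -0.31 to -0.00, adjusted p = 0.0952), although it did without control replicate 1 and under both other scalings, down to 0.0215. The summed signal of both genes in knockout cells was 0.836 of the control sum. LDHA has 6 and LDHB 3 pseudogenes of that name in the annotation, and reads could be split with them.

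PGAM1 had 170.4 and 172.5 in rescue libraries, 185.3 and 182.4 in knockout libraries, and 158.2 and 144.2 in control libraries. The groups did not overlap, with control lowest. It rose by 0.28 in knockout relative to control cells (SE 0.056, adjusted p = 0.00133). The change of -0.10 in rescue relative to knockout cells did not pass (adjusted p = 0.191). It did after quantile normalization and with only those groups in the fit, the same fit as with a control library left out. GAPDH, the triose phosphate dehydrogenase, fell by 0.15 in knockout relative to control cells (adjusted p = 0.0468) and rose by 0.20 in rescue relative to knockout cells (adjusted p = 0.0148). The fall was lost when any library other than control replicate 2 was left out (0.0653 to 0.168), and the rise without rescue replicate 2 (0.0923). Neither held after quantile normalization, where GAPDH changed by -0.05 in knockout relative to control cells (adjusted p = 0.373) and by 0.05 in rescue relative to knockout cells (adjusted p = 0.384), or without the mean-variance trend (adjusted p of at least 0.0787). Without the filter on low values the fall of GAPDH was also lost (adjusted p = 0.0671). PGAM1 has 13 and GAPDH 62 named pseudogenes, with which reads could likewise be split.

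ENO1, the main enolase, had 807.8 and 798.6 in rescue libraries, 735.4 and 720.8 in knockout libraries, and 780.0 and 741.1 in control libraries. Its rise of 0.14 in rescue relative to knockout cells (adjusted p = 0.0469) was lost without any 1 of the 4 libraries compared (0.109 to 0.265) and turned to -0.10 after quantile normalization. In knockout relative to control cells ENO1 passed at 0.16 after quantile normalization (adjusted p = 0.00307) but at -0.16 after scaling by the median ratio (adjusted p = 0.0145). The rise of ENO1 in rescue relative to knockout cells was lost without the filter on low values (0.0597) or the mean-variance trend (0.167). ENO1-AS1 lies on its other strand. PGK1, ENO2 and PKM passed in no comparison with the values as deposited. In knockout relative to control cells ENO2 passed as a fall under both other scalings (down to 0.0172), PGK1 as a rise after quantile normalization and without control replicate 1 (down to 0.0283), and PKM as a rise without control replicate 1 (0.0252). PKM also passed as a rise in rescue relative to knockout cells after scaling by the median ratio (0.0489). PGK1, a kinase that makes ATP, had 275.4 to 318.9 over all libraries, and ATP7A overlaps it. ENO2, the neuronal enolase, had 4.08 to 4.86, and LRRC23 overlaps it. PKM, the pyruvate kinase, had 310.9 to 336.7 in rescue and knockout libraries and 282.8 to 317.9 in control libraries, and the table does not separate its M1 and M2 splice forms.

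The pentose phosphate pathway had 6 members, of which 1 rose and 3 fell in knockout relative to control cells, with a median change of -0.19, and 4 rose in rescue relative to knockout cells, with a median of 0.24. Over all genes tested 26.2% rose and 13.5% fell in knockout relative to control cells, and 15.6% rose in rescue relative to knockout cells, with medians of 0.07 and -0.01. The 3 that fell were PGLS, RPIA and RPE. RPE, the epimerase that makes xylulose 5-phosphate, had 25.1 and 26.2 in rescue libraries, 19.7 and 20.5 in knockout libraries, and 26.4 and 25.9 in control libraries. It fell by 0.36 in knockout relative to control cells (SE 0.067, adjusted p = 0.000746) and rose by 0.34 in rescue relative to knockout cells (SE 0.067, adjusted p = 0.00190). RPE has 6 named pseudogenes, and KANSL1L overlaps it on the other strand.

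RPIA, the isomerase that makes ribose 5-phosphate, had 25.3 and 24.9 in rescue libraries, 20.0 in both knockout libraries, and 25.8 and 23.5 in control libraries. The knockout libraries again lay below all others. It fell by 0.28 in knockout relative to control cells (SE 0.070, adjusted p = 0.00532) and rose by 0.31 in rescue relative to knockout cells (SE 0.070, adjusted p = 0.00397). PGLS, the lactonase of the oxidative arm, had 28.0 and 29.3 in rescue libraries, 23.8 and 18.7 in knockout libraries, and 28.7 and 24.3 in control libraries. Knockout replicate 1 and control replicate 2 differed by less than 1, so the groups were close. It fell by 0.31 in knockout relative to control cells (adjusted p = 0.0244) and rose by 0.43 in rescue relative to knockout cells (adjusted p = 0.00585). Without knockout replicate 2 both calls were lost, with changes of -0.14 and 0.26. The fall was also lost without control replicate 1 (a change of -0.20) and without the mean-variance trend (adjusted p = 0.0679).

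PGD went the other way. This enzyme, which makes NADPH at the last oxidative step, had 104.7 and 105.6 in rescue libraries, 114.6 and 116.1 in knockout libraries, and 97.9 and 94.2 in control libraries. All 3 groups were apart, with control lowest. It rose by 0.26 in knockout relative to control cells (SE 0.053, adjusted p = 0.00149). The change of -0.13 in rescue relative to knockout cells did not pass (adjusted p = 0.0711). It did after quantile normalization and with only those groups in the fit, the same fit as with a control library left out. TALDO1, the transaldolase, had 146.7 and 147.4 in rescue, 133.0 and 127.6 in knockout, and 144.7 and 133.4 in control libraries. It rose by 0.17 in rescue relative to knockout cells (adjusted p = 0.0296). That call was lost without the mean-variance trend (0.114). It was also lost without any 1 of the 4 libraries compared, with changes of 0.14 to 0.20. In knockout relative to control cells TALDO1 passed as a fall under both other scalings and without control replicate 2, down to 0.00230. TKT, the transketolase, passed in no comparison, with 140.1 to 153.4 over all libraries.

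Lactate and pyruvate cross the membrane by the monocarboxylate transporters, whose genes moved in opposite directions. SLC16A1 (MCT1; chromosome 1, 112911847 to 112957013, minus strand), the widely expressed form, had 51.2 and 52.6 in rescue libraries, 37.2 and 35.6 in knockout libraries, and 50.2 and 46.5 in control libraries. It fell by 0.40 in knockout relative to control cells (SE 0.062, adjusted p = 0.000225) and rose by 0.50 in rescue relative to knockout cells (SE 0.062, adjusted p = 6.83e-05). The knockout libraries lay below all others.

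SLC16A3 (MCT4; chromosome 17, 82228397 to 82261129, plus strand), the lactate exporter of glycolytic cells, had 48.4 and 48.6 in rescue libraries, 60.7 and 55.3 in knockout libraries, and 39.7 and 41.6 in control libraries. All 3 groups were apart, with rescue between the others. It rose by 0.50 in knockout relative to control cells (SE 0.063, adjusted p = 3.93e-05). Its fall of 0.25 in rescue relative to knockout cells (adjusted p = 0.00794) was lost without knockout replicate 1 (0.146), rescue replicate 1 (0.0599) or rescue replicate 2 (0.0552). SLC16A1-AS1 lies opposite SLC16A1 and CSNK1D opposite SLC16A3, and reads of the partners cannot be told apart where counting ignored strand.

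SLC16A3 made up 48.3% of the signal of both transporters in rescue cells, 61.4% in knockout cells and 45.7% in control cells on average. The order of the pair was thus turned round: SLC16A3 lay above SLC16A1 in both knockout libraries and below it in the other 4. The ratio of SLC16A3 to SLC16A1 rose by 0.90 in knockout relative to control cells (SE 0.088, adjusted p = 5.27e-06) and fell by 0.75 in rescue relative to knockout cells (SE 0.088, adjusted p = 4.24e-05). The sum of the pair differed less, at 1.06 times the control sum in knockout cells.

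The glucose carriers passed in no comparison with the values as deposited. SLC2A1 (GLUT1), the basal carrier, had 11.0 and 11.6 in rescue, 12.0 and 12.2 in knockout, and 11.6 and 9.47 in control libraries. SLC2A3 (GLUT3), the high-affinity carrier, had 17.8 and 17.5 in rescue, 17.5 and 17.1 in knockout, and 21.0 and 18.4 in control libraries. Their changes in knockout relative to control cells were 0.19 and -0.18 (adjusted p = 0.112 and 0.0844), and the ratio of SLC2A3 to SLC2A1 fell by 0.37 (adjusted p = 0.0171). That call was lost without either knockout library, with an adjusted p of up to 0.135. Alone, SLC2A3 passed as a fall after quantile normalization (-0.23, adjusted p = 0.00396), scaling by the median ratio (-0.27, adjusted p = 0.00183) or without control replicate 2 (-0.27, adjusted p = 0.0110). SLC2A1 passed as a rise without control replicate 1 (0.33, adjusted p = 0.0108).

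The genes that link glucose 6-phosphate to glycogen and nucleotide sugars were split. PGM2, a mutase of pentose and glucose phosphates, had 22.3 and 23.0 in rescue libraries, 17.6 and 17.9 in knockout libraries, and 23.0 and 21.6 in control libraries. It fell by 0.31 in knockout relative to control cells (SE 0.069, adjusted p = 0.00268) and rose by 0.34 in rescue relative to knockout cells (SE 0.069, adjusted p = 0.00226). UGP2, which makes UDP-glucose, had 42.3 and 46.1 in rescue libraries, 53.4 and 54.3 in knockout libraries, and 44.4 and 40.7 in control libraries. It rose by 0.33 in knockout relative to control cells (SE 0.066, adjusted p = 0.00126) and fell by 0.28 in rescue relative to knockout cells (SE 0.066, adjusted p = 0.00530), the fall being lost without rescue replicate 1 (0.105).

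PGM1, the main phosphoglucomutase, passed in no comparison, with 42.1 to 46.8 over all libraries, and ITGB3BP lies on its other strand. The ratio of PGM2 to PGM1 fell by 0.35 in knockout relative to control cells (adjusted p = 0.00996) and rose by 0.32 in rescue relative to knockout cells (adjusted p = 0.0194). The first call was lost without either knockout library (up to 0.105), and the second without any 1 of the 4 libraries compared (up to 0.171).

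Of 15 isoenzyme pairs, 11 could be tested, those with PFKM or PFKFB2 being left out. In knockout relative to control cells 7 ratios passed, and in rescue relative to knockout cells 6 passed, adjusted over all genes and pairs. Ratios of PFKL to PFKP, HK3 to HK1, HK3 to HK2 and SLC16A3 to SLC16A1 passed in both comparisons under each of 14 alternative settings, while in knockout relative to control cells the other 3 were lost without either knockout library, which left 4 of the 7. The enolase ratio of ENO2 to ENO1 did not pass (-0.08 in knockout relative to control cells, interval -0.37 to 0.20), except after quantile normalization (0.00676).

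**Figure D4:**
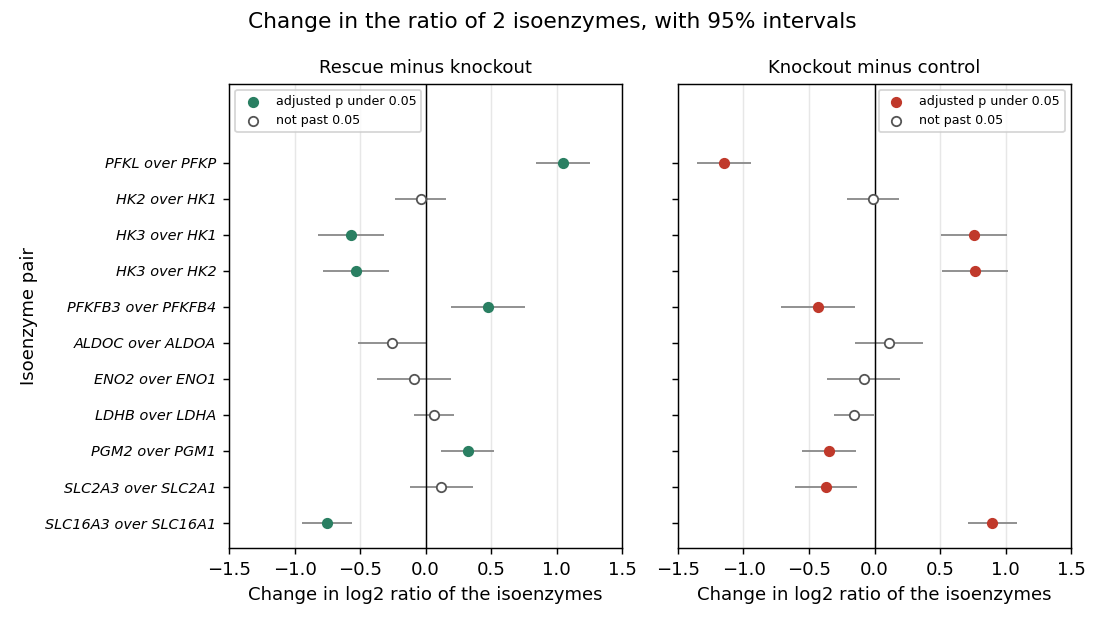
Change in the log2 ratio of isoenzymes, with 95% intervals, for 11 pairs; rescue minus knockout on the left, knockout minus control on the right, and filled points past an adjusted p of 0.05. PFKL over PFKP, at 1.05 and -1.15, and SLC16A3 over SLC16A1, at -0.75 and 0.90, lie farthest from 0.

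Rescue against control cells asks how far the guide with added METTL16 still differs from no targeting. By limma 0 of 32 members rose and 0 fell, where 0.228% of all genes tested rose and 0.055% fell. The median change was 0.06 for the members and 0.06 for all genes tested. An unadjusted p under 0.05 was found for 8 members, all higher in rescue. The share of all genes at that cut is not given here, so the 8 are no result about the set. Rescue libraries lay wholly above control libraries for 14 members (43.8%, against 34.6% of all genes) and wholly below for 5 (15.6%, against 5.33%). PFKL differed by 0.05 (interval -0.11 to 0.21, adjusted p = 0.835). The largest difference was that of SLC16A3, 0.25 higher in rescue (SE 0.063, adjusted p = 0.129). It passed at 0.0437 with only those groups in the fit, the same fit as with a knockout library left out. It also passed at 0.0164 among genes with a mean signal of at least 5. With the replicate number as a block it passed at 0.0103. It did not pass under the other alternatives. HK3 came next, 0.23 higher in rescue (interval 0.015 to 0.44, adjusted p = 0.405), with both rescue libraries above both control libraries. PGAM1 (0.18), PKM (0.16), PGK1 (0.15), TPI1 (0.14), PGD (0.13) and LDHA (0.12) were also among the 8. The ratios of isoenzymes passed in 0 of 11 pairs, with 1 unadjusted p under 0.05, that of SLC2A3 to SLC2A1 (0.0417). The interval for the ratio of PFKL to PFKP was -0.30 to 0.11.

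Neighbouring pathways were described from 6 lists, of which up to 4 genes each were named by the smallest p in knockout relative to control cells. Other enzymes of the pentose and ribose phosphate pathway gave 1 rise and 4 falls of 10 tested genes in knockout relative to control cells (median -0.05, beside 26.2% risen and 13.5% fallen over all genes tested, median 0.07), and 3 rises and 1 fall in rescue relative to knockout cells (median 0.08, beside 15.6% risen and 15.9% fallen over all genes tested, median -0.01). PRPS1, PRPS2 and PRPSAP1, which make phosphoribosyl pyrophosphate from ribose 5-phosphate or bind the enzymes that do, fell. PRPS1 had 47.8 and 47.6 in rescue libraries, 34.8 and 34.7 in knockout libraries, and 45.6 and 41.8 in control libraries. Its change was -0.32 in knockout relative to control cells (adjusted p = 0.00117) and 0.45 in rescue relative to knockout cells (adjusted p = 0.000165). PRPS2 fell by 0.26 and PRPSAP1 by 0.30 in knockout relative to control cells (adjusted p = 0.00800 and 0.00918).

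Other carriers and their chaperones gave 5 rises and 0 falls of 11 tested genes in knockout relative to control cells (median 0.26), where 26.2% of all genes tested rose and 13.5% fell (median 0.07). In rescue relative to knockout cells they gave 0 rises and 5 falls (median -0.22), where 15.6% of all genes tested rose and 15.9% fell (median -0.01). TXNIP, which promotes the removal of glucose carriers from the membrane, had 14.7 and 15.7 in rescue libraries, 31.5 and 29.8 in knockout libraries, and 12.3 and 11.3 in control libraries. It rose by 1.31 in knockout relative to control cells (SE 0.075, adjusted p = 3.72e-08) and fell by 0.96 in rescue relative to knockout cells (adjusted p = 1.11e-06). BSG and EMB, the chaperones of the monocarboxylate transporters, rose by 0.39 (adjusted p = 0.000133) and 0.45 (adjusted p = 0.000149) in knockout relative to control cells. BSG averaged 164.4 in rescue, 191.3 in knockout and 145.8 in control cells. It was thus highest in the group where SLC16A3 was highest and SLC16A1 was lowest. SLC37A1, a sugar phosphate exchanger, rose by 0.48 (adjusted p = 0.00248).

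Of 15 tested regulators of glycolytic genes, 6 rose and 1 fell in knockout relative to control cells (median 0.14, beside 26.2% risen and 13.5% fallen over all genes tested, median 0.07). MYC, an activator of many glycolytic genes, was the one that fell. It had 106.4 and 109.7 in rescue libraries, 64.3 and 65.3 in knockout libraries, and 95.7 and 87.1 in control libraries, a change of -0.49 in knockout relative to control cells (adjusted p = 2.87e-05) and 0.73 in rescue relative to knockout cells (adjusted p = 1.49e-06). EPAS1, a hypoxia-inducible factor, rose by 0.70 in knockout relative to control cells (adjusted p = 5.75e-05) and fell by 0.59 in rescue relative to knockout cells (adjusted p = 0.000364). ARNT, the partner of the hypoxia factors, rose by 0.24 (adjusted p = 0.0146).

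Glycogen and nucleotide sugar enzymes gave 8 rises and 2 falls of 22 tested genes in knockout relative to control cells (median 0.14, beside 26.2% risen and 13.5% fallen over all genes tested, median 0.07). GYS1, the glycogen synthase, averaged 18.3 in rescue, 24.5 in knockout and 16.7 in control cells and rose by 0.53 (adjusted p = 0.000126). GYG1, which primes glycogen, rose by 0.38 (adjusted p = 0.000214). Both were named for their small p in this comparison, so they do not stand for the list. GBE1 of the same list did not pass (0.10, adjusted p = 0.238), and PYGL was among the 2 falls (-0.17, adjusted p = 0.0207). PMM1, of mannose metabolism, rose by 0.50 (adjusted p = 0.000933), and UAP1, of glucosamine metabolism, by 0.41 (adjusted p = 0.00169).

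Among 14 genes of pyruvate entry into mitochondria 4 rose and 2 fell in knockout relative to control cells (median 0.04). Both counts are near the share over all genes tested, of which 26.2% rose and 13.5% fell. PDHB, a pyruvate dehydrogenase subunit, rose by 0.31 (adjusted p = 0.00118). The kinases that switch the dehydrogenase off were split, with PDK2 up by 0.48 (adjusted p = 0.00608) while PDK3 fell by 0.25 (adjusted p = 0.0149). PC, the pyruvate carboxylase, rose by 0.32 (adjusted p = 0.0165).

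Among 14 other enzymes of glycolysis and gluconeogenesis 3 rose and 1 fell (median -0.07), and these counts too are near the shares of 26.2% and 13.5% over all genes tested. The fall was that of PCK2, the mitochondrial phosphoenolpyruvate carboxykinase, by 0.34 (adjusted p = 0.00135). G6PC3, a glucose 6-phosphatase, rose by 0.39 (adjusted p = 0.00194), and ADPGK, a glucokinase that uses ADP, by 0.27 (adjusted p = 0.00568). FBP1, which works against phosphofructokinase, averaged 0.656 in rescue, 1.31 in knockout and 0.590 in control cells. It is 1 of the 3 rises but passed the filter on low values through its knockout libraries alone, so its call is no support. In rescue relative to control cells 0 genes of these 6 lists passed.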

How the data were processed

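RNA sequencing of 6 NOMO-1 libraries was used, 2 each of rescue, knockout and control cells as grouped by the labels. Stranded libraries of ribosome-depleted total RNA were made, per the labels' protocols. Reads were processed with STAR and RSEM on GRCh38, per the submitters' processing notes, with no version stated. The authors deposited 1 abundance signal per gene and library. Whether it is TPM or FPKM is not given in the sources used here. The number of columns left unused was 0.

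Genes at 1 or more in 2 or more libraries were tested on log2(signal + 1) with limma 3.58.1 (R 4.3.3, trend, 1 fit of all 6 libraries, with 3 residual degrees of freedom and 11 prior ones), two-sided, with Benjamini-Hochberg adjustment over all 12734 genes and a threshold of 0.05. The fit was tested on simulated data. Adding 1 understates changes of low genes. Ratios of isoenzymes entered the same fit, with the level of the lower gene as trend covariate, and were adjusted over all genes and pairs. Shares were compared by exact permutation. Depth was estimated from the spacing of short-transcript values, of which 71.4% to 87.5% lay within 0.15 of a whole number (30% by chance for a fixed step; the step was chosen on these values). Coordinates and transcripts are from GENCODE 29 (GRCh38), promoters from RefSeq. The members, lists and tests were chosen with earlier results of these data known. Values per library are given for members past the threshold and for the phosphofructokinase, hexokinase, PFKFB and lactate dehydrogenase families, and list genes are the up to 4 with the smallest p past the threshold, of which some are not reported here. Shares, counts and plots used scipy 1.17.1, pandas 2.3.3, numpy 2.4.6 and matplotlib 3.10.9 in Python 3.11.15.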

Additional observations from a re-analysis of the deposited data

How the results depend on the processing

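Counts, members and ratios were recomputed under 14 alternatives, except ENO2 and its ratio, under 13 since ENO2 fell below a mean signal of 5. The PFKL share was recomputed only after quantile normalization and with libraries left out. Over the tested members and comparisons, 1252 values stayed on their side of the threshold (48 of them changed sign without a call in either fit), 49 lost a call, 38 gained one and 2 changed sign with a call. Both of these were ENO1 after quantile normalization, 0.16 in knockout relative to control cells (adjusted p = 0.00307, range 0.00307 to 0.659) and -0.10 in rescue relative to knockout cells (adjusted p = 0.0222, range 0.0127 to 0.265). In knockout relative to control cells the 9 falls became 14 after quantile normalization and 17 after scaling by the median ratio. Over all genes tested the 1723 falls became 3187 and 3435 under these scalings. With a library left out, rises ranged from 6 to 10 and falls from 6 to 11 in knockout relative to control cells, rises from 8 to 12 and falls from 1 to 8 in rescue relative to knockout cells, and rises from 0 to 1 in rescue relative to control cells. The 1 rise was SLC16A3, also found with a mean signal of at least 5 (1), with the groups compared alone (1) and under the replicate block (1). Isoenzyme ratios past the threshold ranged from 4 to 8 in knockout relative to control cells and from 4 to 7 in rescue relative to knockout cells with a library left out. Where a group then held 1 library, it was assumed to vary like the others. The cause of these differences was not tested. Leaving out a library of the group not compared gave the same fit as the compared groups alone. Such alternatives are therefore not separate checks. The PFKL share differed by -18.1 to -17.2 points in knockout and by 15.1 to 16.8 points in rescue cells with a library left out. Calls of PFKL, SLC16A1, HK3, LDHB, RPIA, RPE and PGM2 held in knockout relative to control cells and in rescue relative to knockout cells under all 14 alternatives. So did those of TPI1, SLC16A3, PGAM1, PGD and UGP2 in knockout relative to control cells, and that of LDHA in rescue relative to knockout cells. Whether replicate numbers pair the samples is not stated in the sources used here. Deviations of same-numbered libraries correlated at -0.01 between knockout and control, 0.10 between rescue and knockout and -0.05 between rescue and control. With 2 libraries a group these values cannot settle it. Over all genes, a block on the replicate number gave 299 rises and 83 falls in rescue relative to control cells, beside 29 and 7 without it. With the replicate number as a block the member counts were 7 and 9 in knockout relative to control cells, 11 and 6 in rescue relative to knockout cells, and 1 and 0 in rescue relative to control cells. Depth limits PFKM most, and it entered no test.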
